A study of Homo sapiens and Mus musculus with 20 samples.

Results

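The nuclear-encoded subunits of the respiratory chain and ATP synthase were followed in IMR90, a line of fibroblasts from human fetal lung. Members were taken by gene symbol: the NDUFA, NDUFB, NDUFC, NDUFS and NDUFV genes of complex I, SDHA to SDHD of complex II, the UQCR genes of complex III, the COX4 to COX8 genes of complex IV and the ATP5F, ATP5M and ATP5P genes of complex V. Of 17554 symbols in the gene lists, 85 met the rule. The annotation makes 79 of them protein-coding genes and 6 pseudogenes. The subunit genes comprised 35 of complex I, 4 of complex II, 9 of complex III, 14 of complex IV and 17 of complex V, with NDUFA4 counted in complex IV, where its protein sits. The rule reads symbols and uses no measured value.

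RNA sequencing of wild-type IMR90 cells covered 3 treatments, each with a numbered control group of its own and 2 libraries per group. A485 inhibits the catalytic activity of the acetyltransferase p300 and was compared with Control2. MS-275 inhibits class I histone deacetylases and was compared with Control3, and pyruvate was compared with Control6. The study asked how these agents alter histone lactylation and cellular senescence, but the labels give no passage, dose or time, and they do not say whether libraries of a group came from separate cultures. The p-values therefore measure only the spread between these libraries, which may be technical.

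Complexes I to IV pass electrons from NADH and succinate to oxygen in the mitochondrial inner membrane, and complexes I, III and IV pump protons that complex V uses to make ATP. Most subunits are encoded in the nucleus, made in the cytosol and imported, while a small core is encoded by mitochondrial DNA, so the assembly of a complex needs both genomes. Several nuclear subunits exist as tissue forms, such as COX7A1 in heart and skeletal muscle and COX7A2 in most other tissues.

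The 12 libraries held 24179065 to 46971227 reads in listed genes, and genes of mitochondrial DNA took 2.77% to 6.90% of the values. All 8 fibroblast markers were listed in each comparison, with 1.32% to 4.43% of the values. No leukocyte or muscle marker was listed, and epithelial and endothelial markers took at most 0.005% and 0.000554%. The deposited values are reads divided by a size factor per library, each comparison was scaled separately, and tests ran on 16084 genes with A485, 15883 with MS-275 and 12013 with pyruvate. A gene passed where the adjusted p of limma was below 0.05. In 6 ratios of subunit genes, chosen after values were seen, the Control6 libraries stood apart from the other 10. In bulk samples, fewer cells of a type and less RNA per cell cannot be told apart.

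Of the 79 subunit genes, 77 were listed for A485, 77 for MS-275 and 75 for pyruvate. NDUFA3 was below the mean of 10 needed for testing in the A485 comparison, at 4.28 and 0 in Control2 and 13.5 and 12.5 after A485, so 76, 77 and 75 were tested. COX6B2 and NDUFA7 were not listed with A485, NDUFA3 and NDUFV2 not with MS-275, and none of these genes with pyruvate. Levels between genes were set side by side as values per kilobase of the canonical transcript. ATP5F1B, the catalytic beta subunit of the ATP synthase head, stood at 18994 per kilobase in Control2, 19024 in Control3 and 20567 in Control6. COX4I1, the ubiquitous form of a regulatory subunit of cytochrome c oxidase, stood at 13611, 19960 and 17126. These genes held the first and second places in all 3 control groups. COX4I1 came first in Control3, by a difference smaller than the spread between its libraries, which held 9568 and 20892 before division by length.

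At the other end, COX7A1, the muscle form of a small complex IV subunit, stood at 358 per kilobase in Control2 against 9458 for COX7A2. It stood at 488 in Control3 and at 2014 in Control6, against 11896 and 8864 for COX7A2. Some core subunits were listed at values far below their partners. NDUFV2, which carries an iron-sulfur cluster beside the NADH site, had 28.9 and 12.2 in Control2, while its partner NDUFV1 had 3873 and 3787. SDHA, the flavoprotein of complex II, had 113 per kilobase in Control2 against 3916 for SDHC, one of its membrane anchors.

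The low values of NDUFV2 and SDHA went with a large share of exon bases that the annotation also gives to another gene. The share was 90.0% for NDUFV2, 83.9% for NDUFA13 and 69.4% for SDHA. It was 0% for COX7A1 and for NDUFA5, the lowest listed subunit gene in Control6 at 16.8 per kilobase. In Control2 the median level per kilobase was 308 for the 7 listed subunit genes with 50% or more shared, 924 for the 17 genes between 10% and 50%, and 3000.4 for the 53 genes below 10%. The order was the same in Control3 and Control6. How the counting assigned reads in shared exons is not given in the sources used here, so the levels of such genes are uncertain and the part of the sharing in them was not tested. UQCRH and its near-identical copy UQCRHL may share reads as well.

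The promoters of these genes are known for sites of NRF1 and of the ETS factor GABP (also called NRF2). Sequences are shown for COX4I1 and NDUFS1. Among subunit genes whose promoter held an NRF1 or ETS match, these 2 had the smallest limma p after pyruvate. The ETS match in each thus follows from that choice. The sequences are from RefSeq on the GRCh38.p14 build, from 250 bases before to 50 after the start of the gene, with the matches in capitals. The motifs were searched on both strands as CGCATGCG (NRF1 core), CCGGAAG (ETS), GGGCGG (SP1) and AAGATGGC (YY1). COX4I1, at chr16:85799445-85799744 on the plus strand, holds 1 ETS and 2 SP1 matches. NDUFS1, at chr2:206159395-206159694 on the minus strand, holds 1 ETS and 1 SP1 match.
COX4I1: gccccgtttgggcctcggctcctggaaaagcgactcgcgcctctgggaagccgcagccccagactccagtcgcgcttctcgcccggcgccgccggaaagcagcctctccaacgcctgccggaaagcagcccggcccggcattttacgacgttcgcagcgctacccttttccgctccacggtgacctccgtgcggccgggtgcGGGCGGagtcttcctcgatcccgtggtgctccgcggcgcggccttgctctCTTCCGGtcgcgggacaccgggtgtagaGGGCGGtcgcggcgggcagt
NDUFS1: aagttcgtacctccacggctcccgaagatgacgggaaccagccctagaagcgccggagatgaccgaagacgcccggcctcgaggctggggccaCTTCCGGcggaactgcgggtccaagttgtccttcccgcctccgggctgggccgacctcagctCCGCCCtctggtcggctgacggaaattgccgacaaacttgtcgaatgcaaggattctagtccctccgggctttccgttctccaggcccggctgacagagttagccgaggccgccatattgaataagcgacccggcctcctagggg

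A match is a description of letters and not a binding site. Promoters were found for 64 of the subunit genes in the RefSeq table of 27305 promoters. The NRF1 core occurred in 10 of the 64, or 15.6%, against 2.19% of all promoters, and the ETS motif in 20, or 31.2%, against 10.7%. YY1 matches occurred in 10, or 15.6%, against 3.03%, and SP1 matches in 40, or 62.5%, against 44.6%. An NRF1 or ETS match was present in 9 of 30 complex I promoters, 5 of 11 of complex IV, 2 of 3 of complex II, 3 of 7 of complex III and 7 of 13 of complex V, in all 40.6%, against 12.3% of all promoters.

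Subunit genes took less than 1% of the reads in every library. Their share was 0.571% and 0.555% in Control2 and 0.769% and 0.666% after A485. It was 0.534% and 0.954% in Control3 and 0.518% and 0.918% after MS-275. It was 0.655% and 0.729% in Control6 and 0.537% and 0.52% after pyruvate. Both A485 libraries lay above both of their controls and both pyruvate libraries lay below theirs. With libraries scaled to equal totals, the median log2 fold change after A485 was 0.42 for subunit genes and 0.40 for all genes. After pyruvate these medians were -0.41 and 0.30. In the MS-275 comparison the libraries numbered 1 and the libraries numbered 2 differed far more than treated and control libraries did.

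**Figure D1:**
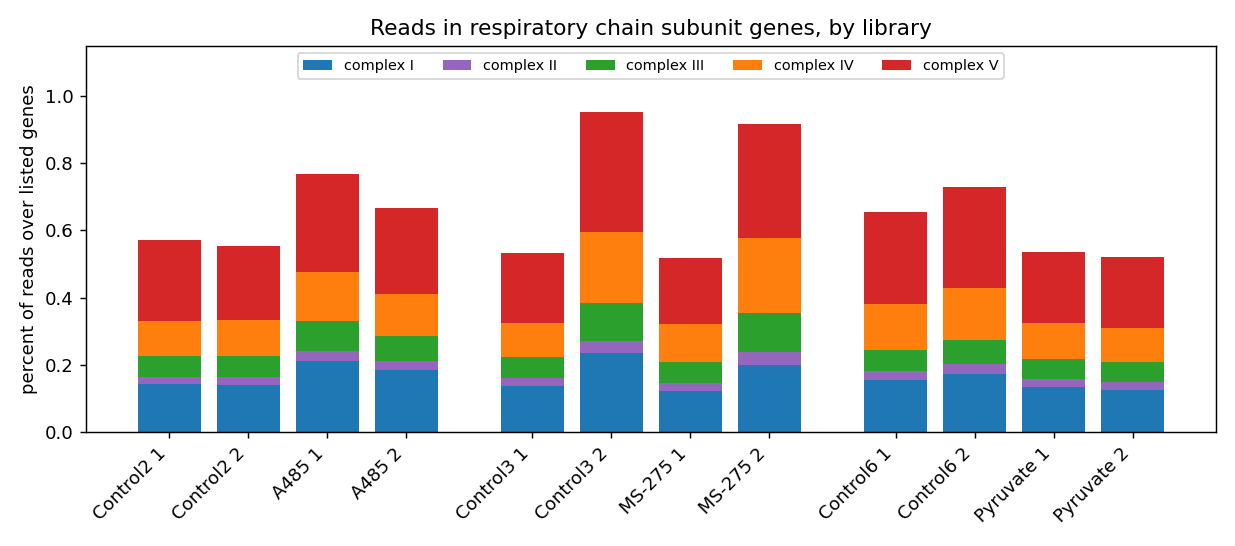
Share of the reads in listed genes that fell in respiratory chain subunit genes, in percent, with 1 bar for each library of the 6 groups, stacked by complex. The MS-275 and Control3 libraries numbered 2 stand at 0.918% and 0.954%, and those numbered 1 at 0.518% and 0.534%.

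**Figure D2:**
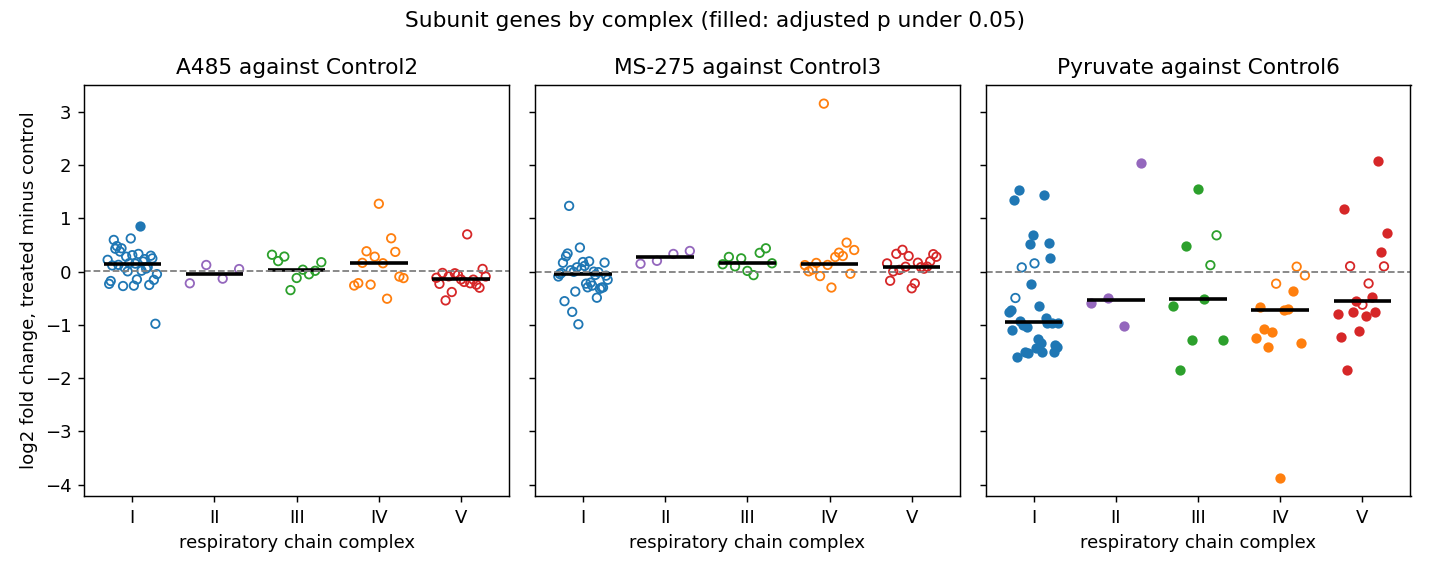
Log2 fold change of each tested subunit gene, treated minus control, by complex, with 1 point per gene (filled where it passed), a bar at the median of each complex and a dashed line at the median of all genes. Medians run from -0.94 to -0.51 after pyruvate, and lie between -0.15 and 0.16 after A485 and between -0.045 and 0.27 after MS-275.

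After A485, NDUFC2 rose and no other subunit gene passed the test. NDUFC2, an accessory subunit of the membrane arm of complex I at chr11:78068297-78079862 on the minus strand, had 948 and 928 in Control2 and 1867 and 1536 in the A485 libraries. Both treated libraries lay above both controls (log2 fold change 0.85, SE 0.19, limma adjusted p = 0.0401, n = 2 per group). Of 76 subunit genes 1 was thus higher, against a background of 4.43% of all genes tested, and 0 were lower by limma, edgeR and DESeq2, against 8.21% by limma. At an unadjusted p below 0.05, 5 subunit genes were higher and 2 lower, or 6.58% and 2.63%, against 13.7% and 17.1% of all genes. By other settings, 14 subunit genes were higher with equal totals (all genes: 17.5%), 2 with quantile scaling (6.94%), 2 with the length and GC trend removed (4.88%), 5 with the replicate number as a block (9.62%), 3 with the block and the trend removed (8.72%) and 4 with DESeq2 (8.26%). Lower were 0 with equal totals (all genes: 6.57%), 0 with quantile scaling (7.28%) and 1 with the trend removed (9.09%). With 1 library left out at a time, the log2 fold change of NDUFC2 ran from 0.71 (without A485 replicate 1) to 0.99 (without A485 replicate 2). Such fits leave 1 library in a group, so no count of passing genes is given for them. The fibroblast markers moved at the same time: 7 of 8 fell, with a median of -1.92, and their part in the result was not tested.

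The median log2 fold change of the 76 subunit genes was 0.027, and that of all genes 0.0088. Scaling the libraries to equal totals moved the median of all genes by 0.39 and that of the subunit genes to 0.42, so the directions given here are relative to the median of all genes. Leaving out 1 library at a time moved the subunit median between -0.063 (without Control2 replicate 1) and 0.11 (without A485 replicate 2), and it was -0.038 without A485 replicate 1. Treated libraries lay above both controls for 25 subunit genes and below both for 24, against 30.4% and 30.7% of all genes, or 32.9% and 31.6% of the subunit genes.

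The complexes did not sit at the same level. In complex I, 24 of 33 tested genes had a value above 0, with a median of 0.15, and in complex V 2 of 17 did, with a median of -0.15. The medians were -0.042 for complex II, 0.037 for complex III and 0.16 for complex IV. With equal totals the complex V median turned positive, at 0.25, and that of complex I was 0.54, so the complex V direction holds only relative to other genes. The difference between complexes was not tested, because subunit genes are not replicates of a condition.

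NDUFB5, also of the membrane arm, came next in complex I. It had 1004 and 1011 in Control2 and 1735 and 1389.5 after A485, above both controls but short of the threshold (log2 fold change 0.62, SE 0.20, limma adjusted p = 0.0923). Of the core subunits of the matrix arm, NDUFS1 stood at 0.018, NDUFV1 at -0.15, NDUFS3 at 0.24, NDUFS7 at 0.30 and NDUFS8 at 0.25, and none passed. NDUFV2 had the lowest value of complex I, -0.98 (limma adjusted p = 0.399), on 28.9 and 12.2 in Control2 and 8.43 and 9.80 after A485. All 4 complex II genes lay between -0.22 for SDHA and 0.13 for SDHB, the iron-sulfur subunit.

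In complex IV the value farthest from 0 was that of COX7A1. It had 135 and 109 in Control2 and 349.8 and 248 after A485, so both treated libraries were above the controls (log2 fold change 1.28, SE 0.34, limma adjusted p = 0.0631). COX7A2L, a factor that helps complexes III and IV join into supercomplexes, went the other way at 5339 and 6745 and then 4323 and 4115 (log2 fold change -0.51, SE 0.18, limma adjusted p = 0.122). Neither passed. COX7A1 passed with DESeq2 (adjusted p = 0.00974), and by limma with equal totals (0.0256), quantile scaling (0.0477), the replicate block (0.0242) and the length and GC trend removed (0.0141). COX7B, a small subunit of complex IV, had 1675 and 2067 in Control2 and 2970.1 and 2782 after A485 (log2 fold change 0.63, SE 0.18, limma adjusted p = 0.0762), and it passed with DESeq2 (adjusted p = 0.0434).

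In complex V, ATP5MG, a subunit of the membrane part, had 1090.5 and 1212 in Control2 and 2152 and 1622 after A485 (log2 fold change 0.70, SE 0.21, limma adjusted p = 0.082), and it passed with DESeq2 (adjusted p = 0.0372) and with equal totals in limma (adjusted p = 0.0199). ATP5F1D, the delta subunit of the central stalk, had 2466 and 2982 and then 1906 and 1822 (log2 fold change -0.54, SE 0.18, limma adjusted p = 0.102), and it passed with the length and GC trend removed, at adjusted p = 0.0419 by limma. In complex III, UQCRC1 had the lowest value at -0.35 and UQCR10 the highest at 0.32, and neither passed.

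After MS-275 none of the 77 subunit genes passed the test, in either direction, and none had an unadjusted p below 0.05. edgeR and DESeq2 also called 0 of the 77. Across all 15883 genes limma and edgeR called 0, that is 0% in each direction, while 6.2% were higher and 4.69% lower at an unadjusted p below 0.05. DESeq2 called 2.19% higher and 1.43% lower. The median of the subunit genes was 0.092, against -0.0084 for all genes, and leaving out 1 library at a time moved it from -0.35 (without MS-275 replicate 2) to 0.53 (without MS-275 replicate 1).

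The libraries of each group differed from one another in most subunit genes. COX4I1 had 9568 and 20892 in Control3 and 10441 and 22697 after MS-275, so the libraries numbered 2 held more than the libraries numbered 1 in both groups. The library numbered 2 was higher by more than 0.58 (log2) in both groups for 63 of 77 subunit genes, against 16% of all genes, and lower for 0, against 20.4%. The median difference of number 2 from number 1 was 0.87 in Control3 and 0.91 after MS-275 for subunit genes, and 0.028 and 0.039 for all genes. The median within the complexes was of the same size: 0.85, 0.71, 0.90, 1.03 and 0.85 for complexes I to V in Control3.

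Other genes moved with the replicate number too. Fibroblast markers took 4.21% and 1.75% of the values in Control3 and 3.57% and 1.32% after MS-275, in the order number 1 and number 2. The mitochondrial ribosomal protein genes differed by a median of 0.73 and 0.77 between the numbers, and the protein-coding genes of mitochondrial DNA by -0.83 and -0.42. NDUFS1 was among the subunit genes that did not follow, with 5231 and 4946 in Control3 and 5243 and 4933 after MS-275. What sets the numbers apart was not tested, and the labels give no batch.

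**Figure D3:**
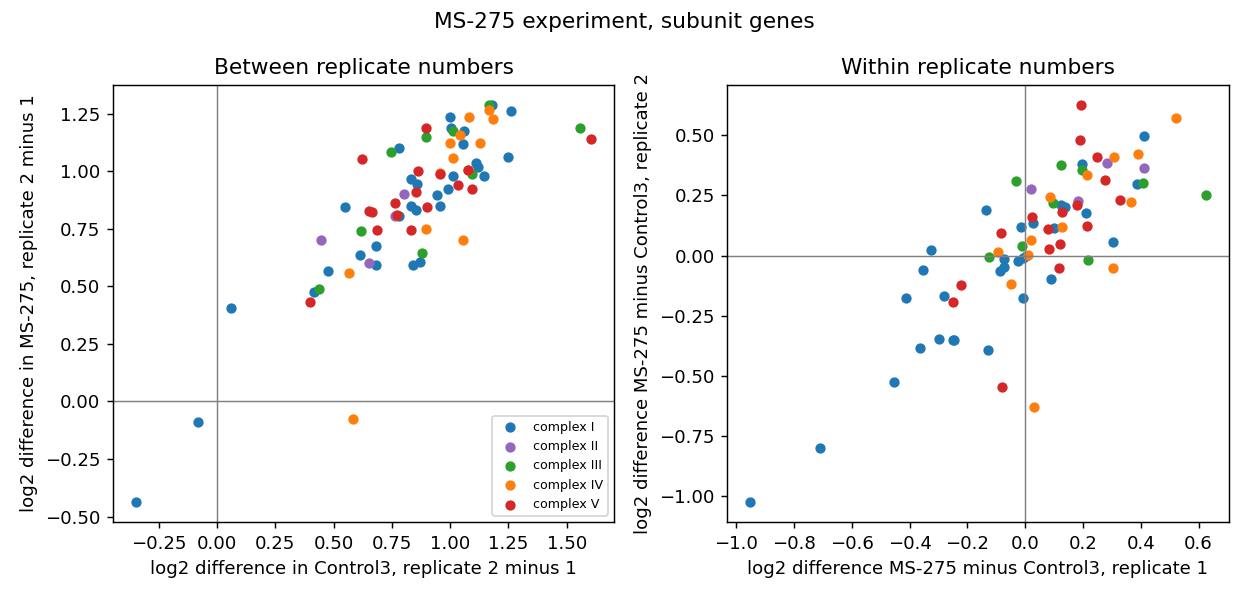
For the 74 subunit genes with a mean of at least 50, the left panel plots the log2 difference of replicate 2 from replicate 1 in MS-275 against that in Control3, and the right panel plots the log2 difference of MS-275 from Control3 within replicate number 2 against that within number 1. Nearly all points of the left panel lie above 0 on both axes, while the right panel spreads around 0 along its diagonal.

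Taken within replicate number, the difference from Control3 had the same sign in both numbers, positive for 41 of 77 subunit genes and negative for 23, against 38.6% and 40.4% of all genes. Differences past 0.58 in both numbers were found for 2 genes upward and 2 downward, against 12.9% and 11.3%. The upward ones, COX6B2 and NDUFA7, were close to the floor of the data: COX6B2, a testis form, had 8.91 and 0 in Control3 and 22.3 and 32.9 after MS-275, and NDUFA7 had 10.9 and 8.09 and 18.4 and 29.9. The downward ones were NDUFB2 and NDUFA9, both accessory subunits of complex I.

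NDUFB2 had 953 and 2058 in Control3 and 492 and 1010.5 after MS-275, a log2 difference of -0.95 within number 1 and -1.03 within number 2. NDUFA9 had 305 and 490.1 and 186 and 281, a difference of -0.71 within number 1 and -0.80 within number 2. For NDUFA9 both treated libraries lay below both controls, while for NDUFB2 the groups overlapped. Treated libraries stood clear of both controls for 2 subunit genes above and 2 below (NDUFA9 and NDUFA13), against 19.5% and 19.3% of all genes.

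By complex, the medians were -0.045 for I, 0.27 for II, 0.16 for III, 0.15 for IV and 0.095 for V. In complex I 12 of 33 values were above 0, and in the other complexes together 37 of 44 were. COX7C, a small subunit of complex IV, had 5037 and 10153 in Control3 and 7229 and 15064 after MS-275, a difference of 0.52 within number 1 and 0.57 within number 2. SDHD, an anchor of complex II, differed by 0.41 within number 1 and 0.36 within number 2. NDUFS3, a core subunit of complex I, differed by -0.45 within number 1 and -0.53 within number 2. With the replicate number as a block, 14 subunit genes were higher and 6 lower by limma (18.2% and 7.79%, against 19.9% and 19.4% of all genes), but 2 pairs with a number in common do not establish that the numbers pair the libraries. With equal totals the median of all genes moved by -0.14 and the subunit median was -0.05, below 0, with complex V at -0.048 and complex II at 0.13.

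After pyruvate, 49 of 75 subunit genes fell and 14 rose, or 65.3% and 18.7%, against 40.2% and 40.6% of all genes. The median log2 fold change of the subunit genes was -0.72 and that of all genes -0.0069. Scaling to equal totals moved the all-gene median by 0.31 and gave a subunit median of -0.41, still below 0. With equal totals 21 subunit genes were higher and 44 lower, or 28% and 58.7%, against 46.9% and 32.7% of all genes. With quantile scaling the medians were -0.70 for subunit genes and -0.17 for all genes.

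Complex I had 22 genes that fell and 7 that rose of 32, with a median of -0.94. Complex II had 3 and 1 of 4 (-0.53), and complex III 5 and 2 of 9 (-0.51). In complex IV 10 of 13 fell and 0 rose (-0.73), and 0 were also higher by edgeR, by DESeq2 and at an unadjusted p below 0.05 in limma, while 2 (COX7C and NDUFA4) were higher with equal totals and 1 with quantile scaling. In complex V 9 fell and 4 rose of 17 (-0.55). The genes that rose were NDUFA5, NDUFA12, NDUFB3, NDUFB5, NDUFS1, NDUFS4 and NDUFS5, then SDHD, UQCRB and UQCRC2, and last ATP5F1C, ATP5PB, ATP5PD and ATP5PO. An NRF1 or ETS match was present in 4 of the 11 promoters found for genes that rose and in 17 of 40 for genes that fell, or 36.4% and 42.5%, against 12.3% of all promoters. All 5 medians stayed below that of all genes with equal totals and with quantile scaling. Their order changed with the length and GC trend removed, as given below. Among the 53 subunit genes that share under 10% of their exon bases with another gene, 36 fell and 10 rose. These are 67.9% and 18.9%, against 40.2% and 40.6% of all genes. Fibroblast markers moved as well, with 6 of 8 lower and 2 higher at 3.96% to 4.24% of the values in every library, turning to 5 higher and 3 lower with the trend removed, and their part in the result was not tested.

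**Figure D4:**
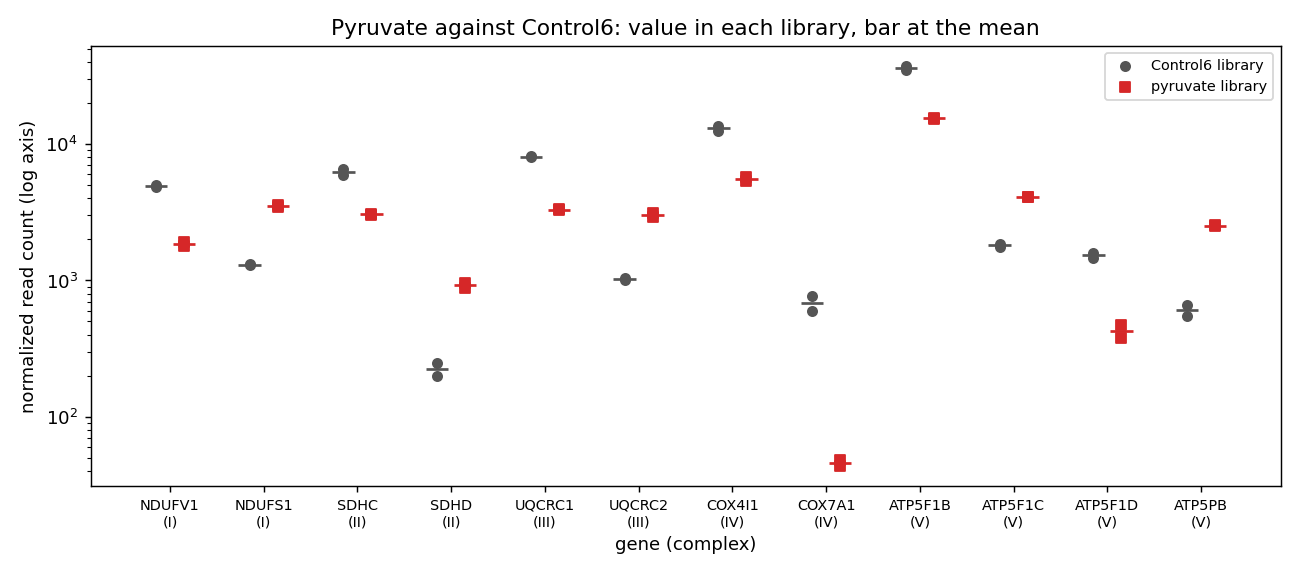
Deposited values of the named subunit genes in the 2 Control6 and 2 pyruvate libraries, on a log axis, with 1 point for each library. The libraries of a group sit close together, and SDHD, UQCRC2, ATP5PB and NDUFS1 rise while COX7A1, UQCRC1, ATP5F1B and COX4I1 fall.

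The core subunits of complex I did not move as one. NDUFV1, which binds NADH and flavin, had 4879.6 and 5054 in Control6 and 1910.1 and 1800.2 after pyruvate (log2 fold change -1.42, SE 0.071, limma adjusted p = 7.56e-09). NDUFS1, the largest iron-sulfur subunit, encoded at chr2:206114817-206159509 on the minus strand, had 1294 and 1315 and then 3484 and 3580.1 (log2 fold change 1.44, SE 0.074, limma adjusted p = 1.02e-08). Both sit in the arm that takes electrons from NADH, and their values moved in opposite directions with no overlap between groups. NDUFA2, a small accessory subunit, fell from 1031 and 1064 to 342 and 345, and NDUFA5 rose from 96.3 and 87.9 to 283 and 256.

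The same held in complexes II and III. SDHC and SDHD form the membrane anchor of complex II as a pair. SDHC had 5894 and 6525 in Control6 and 3098 and 3002 after pyruvate (log2 fold change -1.02, SE 0.07, limma adjusted p = 1.01e-07). SDHD had 198 and 249.6 and then 886 and 959.7 (log2 fold change 2.05, SE 0.15, limma adjusted p = 1.58e-07). The core proteins UQCRC1 and UQCRC2 of complex III likewise parted, with UQCRC1 at 8012 and 8187 and then 3287 and 3334 (log2 fold change -1.29, SE 0.06, limma adjusted p = 4.9e-09). UQCRC2 had 1003 and 1051 in Control6 and 2904 and 3102 after pyruvate (log2 fold change 1.55, SE 0.082, limma adjusted p = 1.22e-08). UQCR11, a small subunit, fell by 1.84 on the log2 scale.

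In complex IV the change farthest from 0 of all subunit genes was that of COX7A1, at chr19:36150922-36152449 on the minus strand. It had 599 and 770.4 in Control6 and 43.3 and 48.0 after pyruvate (log2 fold change -3.87, SE 0.21, limma adjusted p = 1.77e-08). The broadly expressed form COX7A2 had 3832 and 4359 and 2593 and 2342 (log2 fold change -0.73, SE 0.084, limma adjusted p = 8.06e-06). COX4I1 fell as well, from 12523 and 13612 to 5701 and 5332 (log2 fold change -1.24, SE 0.064, limma adjusted p = 1.02e-08). COX6C, NDUFA4 and COX7C did not pass, at -0.23, -0.071 and 0.093.

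Complex V held both the most abundant subunit transcript and the gene with the largest rise. ATP5F1B had 34832 and 37524 in Control6 and 15418 and 15592 after pyruvate (log2 fold change -1.22, SE 0.054, limma adjusted p = 3.27e-09). ATP5F1C, the gamma subunit that turns inside the head, had 1769.9 and 1862 and then 4079.7 and 4089 (log2 fold change 1.17, SE 0.071, limma adjusted p = 3.68e-08). ATP5PB, of the peripheral stalk, had 552 and 655 and then 2493 and 2563 (log2 fold change 2.07, SE 0.10, limma adjusted p = 7.27e-09). ATP5F1D fell from 1464 and 1588 to 380.4 and 468, at -1.85.

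The 3 genes of the c ring, ATP5MC1, ATP5MC2 and ATP5MC3, encode the same mature protein and all fell, at -0.77, -0.55 and -1.12. ATP5MC3 had 5458 and 6077 in Control6 and 2731 and 2569 after pyruvate. With the length and GC trend removed, described next, they parted, at 0.43, 0.63 and -2.46. The peripheral stalk, a grouping chosen after its values were seen, holds the head in place. Its genes ATP5PB, ATP5PD and ATP5PO rose, at 2.07, 0.37 and 0.73, and ATP5PF did not pass, at 0.10. With the trend removed ATP5PB and ATP5PO stayed higher, ATP5PD did not pass and ATP5PF was lower, at -0.98.

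The direction of a gene followed the GC content of its transcript. Across all 11888 genes with a sequence, Spearman's rho of the log2 fold change with GC content was -0.716, and across the 75 subunit genes it was -0.713. With transcript length it was 0.329 and 0.192. These are descriptions across genes that share the same 4 libraries. NDUFS1, SDHD and UQCRC2 have 41.8%, 39.8% and 42.9% GC, and COX7A1 and UQCRC1 have 58.2% and 58.3%.

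At a matched GC content the median of the subunit genes lay below that of all genes in every range. Transcript length was not matched in these ranges. Its median was 756 bases for the subunit genes and 3251.5 for all genes. Below 40% GC the median log2 fold change was 0.29 for 10 subunit genes and 1.80 for all genes. From 40% to 45% it was 0.10 for 16 subunit genes and 1.46 for all genes, and from 45% to 50% -0.69 for 18 subunit genes and 0.16 for all genes. Above 50% both groups had negative medians. From 50% to 55% the value was -1.08 for 17 subunit genes and -0.62 for all genes, from 55% to 60% -1.29 for 7 subunit genes and -0.91 for all genes, and from 60% up -1.42 for 7 subunit genes and -1.18 for all genes. The gap was widest, above 1 on the log2 scale, in the 2 ranges below 45% GC.

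**Figure D5:**
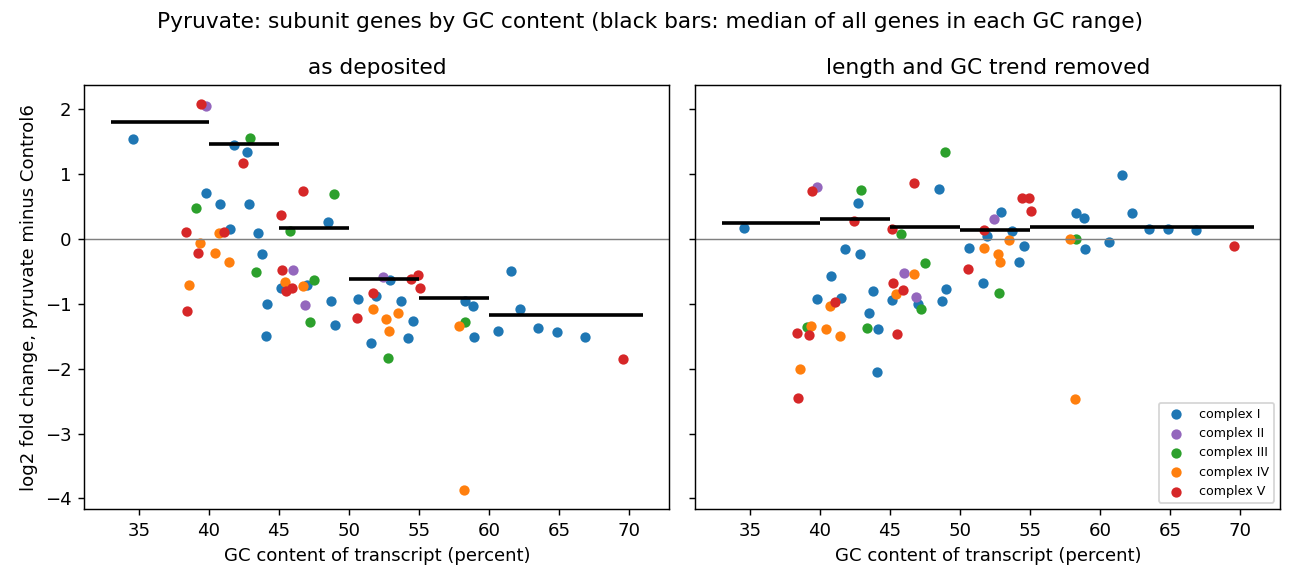
Log2 fold change of subunit genes after pyruvate against the GC content of the canonical transcript in percent, coloured by complex. The left panel is as deposited and the right panel has the length and GC trend removed. Black bars mark the median of all genes in each GC range. On the left, values fall as GC content rises, with rho of -0.716 over all genes and -0.713 over subunit genes. Below 45% GC the medians of subunit genes lie under the bars there. On the right, rho over subunit genes is 0.466.

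With the trend of length and GC content removed from each library, 39 subunit genes were lower and 15 higher, against 25.5% and 40.4% of all genes. The median was -0.23, against 0.20 for all genes. By complex it was -0.15 for I, -0.12 for II, -0.37 for III, -0.86 for IV and -0.12 for V. The lowest median was thus that of complex IV and no longer that of complex I. Of the 49 genes that fell, 28 still fell, 14 no longer passed and 7 turned (ATP5MC1, ATP5MC2, NDUFA11, NDUFB7, NDUFB9, NDUFB11 and NDUFS6). Of the 14 that rose, 7 still rose, 4 no longer passed and 3 turned (NDUFB3, NDUFB5 and UQCRB). Over all genes rho with GC content was -0.0209 after the removal, but over the subunit genes it was 0.466, and with length -0.341. The GC relation among the subunit genes thus changed sign with the trend removed. A further 9 genes passed only then, among them COX7C at -1.04 and ATP5F1E at -1.45.

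The opposite movement of partners thus kept its direction in some pairs and not in others. SDHC and SDHD stood at -0.89 and 0.80 after the removal, and both passed. UQCRC2 stood at 0.74 and passed, while UQCRC1 was at -0.008 with adjusted p = 0.887 by limma. ATP5PB and ATP5F1C stood at 0.73 and 0.27 against -0.46 for ATP5F1B, and all 3 passed. NDUFS1 and NDUFV1 stood at -0.16 and -0.049, and neither passed. COX7A1 remained the lowest, at -2.47, beside ATP5MC3 at -2.46. In complex IV 10 genes were lower and 0 higher, the same counts as without the removal but not the same genes. COX5B, COX6B1 and COX8A no longer passed, while COX6C, COX7C and NDUFA4 passed only with the trend removed.

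Ratios between partners within a library do not depend on how libraries are scaled, so they were set side by side over all 12 libraries, per kilobase. The 6 pairs were chosen after the pyruvate values were seen, so the distance between Control6 and pyruvate in them follows from that choice, and the values of the other 8 libraries are what they add. The ratio of UQCRC2 to UQCRC1 was 0.104 and 0.107 in Control6, 0.736 and 0.775 after pyruvate and 0.389 to 0.892 in the 8 libraries of the other experiments. That of SDHD to SDHC was 0.0329 and 0.0374 in Control6, 0.279 and 0.312 after pyruvate and 0.378 to 0.522 in the 8 libraries of the other experiments. That of NDUFS1 to NDUFV1 was 0.0355 and 0.0348 in Control6, 0.244 and 0.266 after pyruvate and 0.114 to 0.271 in the 8 libraries of the other experiments. In these pairs the Control6 libraries stood apart, and the pyruvate libraries lay within the range of the other experiments or between it and Control6.

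The pairs of complex V did likewise, with ATP5F1C to ATP5F1B at 0.0812 and 0.0793 in Control6, 0.423 and 0.419 after pyruvate and 0.292 to 0.426 in the 8 libraries of the other experiments. ATP5PB to ATP5F1B was 0.0106 and 0.0117 in Control6, 0.108 and 0.11 after pyruvate and 0.152 to 0.241 in the 8 libraries of the other experiments. COX7A1 to COX7A2 was 0.212 and 0.24 in Control6, 0.0227 and 0.0279 after pyruvate and 0.0189 to 0.0925 in the 8 libraries of the other experiments. The difference of Control6 from Control2 in share of reads had a rho with GC content of 0.722 over all genes, against 0.239 for pyruvate from Control2 and 0.22 for Control3 from Control2. Experiments were deposited as separately scaled tables, so culture state, library preparation and treatment cannot be told apart across them, and what sets Control6 apart was not tested.

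Genes that regulate and build the respiratory chain were taken as lists. Of 14 regulators of mitochondrial biogenesis tested with A485, GABPA, the DNA-binding subunit of GABP, rose (1604 and 1911 in Control2, 3514 and 3418 after A485, log2 fold change 0.99, SE 0.17, limma adjusted p = 0.0212). PPRC1, a coactivator of the PGC-1 family, fell (3147 and 2330.4 in Control2, 915 and 1328 after A485, log2 fold change -1.30, SE 0.26, limma adjusted p = 0.0295). Each is 7.14% of the list, against 4.43% higher and 8.21% lower of all genes. The median of the list was -0.43. After MS-275 no gene of the 6 lists described here passed by limma, edgeR or DESeq2 (all genes by DESeq2: 2.19% higher and 1.43% lower). At an unadjusted p below 0.05 in limma, 2 of 14 regulators were higher, against 6.2% of all genes. By the same rule 1 of 76 mitochondrial ribosomal protein genes was lower, against 4.69% of all genes, and the other lists had 0. PPARGC1A, which encodes the coactivator PGC-1 alpha, had 38.6 and 5.05 in Control3 and 205 and 108 after MS-275, above both controls, and TFB1M, a mitochondrial rRNA methyltransferase, had 518 and 756 and 1169 and 1972.

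After pyruvate, 7 of 12 regulators rose and 2 fell, or 58.3% and 16.7%, against 40.6% and 40.2% of all genes. Their median was 0.73, opposite in sign to the subunit genes. TFAM, which packages and transcribes mitochondrial DNA, had 55.003 and 39.1 in Control6 and 290.0 and 262 after pyruvate (log2 fold change 2.55). GABPA stood at 1.96 and GABPB1, its partner, at 2.71. ESRRA, a nuclear receptor of oxidative genes, fell at -1.56, and POLRMT, the mitochondrial RNA polymerase, at -1.32. With the trend removed the median of the 12 was 0.88, with 7 higher and 1 lower, against 40.4% and 25.5% of all genes.

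Assembly factors moved in both directions. After A485, TTC19 and COX17 rose (0.84 and 1.02) and NDUFAF8 and COA7 fell (-0.98 and -0.83) of 51, or 3.92% each way, against 4.43% and 8.21% of all genes. After pyruvate 17 of 48 rose and 21 fell, or 35.4% and 43.8%, near the 40.6% and 40.2% of all genes, with a median of -0.23, which equal totals turned to 0.083. LRPPRC, which stabilises mitochondrial mRNA, had the highest value at 3.13, and COX14, a complex IV assembly factor, the lowest at -2.24.

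The genes of mitochondrial DNA all fell after pyruvate in the values as deposited: 13 of 13 passed, against 40.2% of all genes. Their values ran from -1.20 to -0.50, with a median of -0.83, which was -1.31 with the trend removed. With equal totals the median was -0.52 and 13 were lower, against 32.7% of all genes. With quantile scaling it was -0.34, with 10 lower and 1 higher, against 43.9% and 36.2% of all genes. After A485 MT-ND6 rose (1.79) and the other 12 did not pass, or 7.69% higher, against 4.43% of all genes. After MS-275 all 13 had values above 0, with a median of 0.44, and none passed. Mitochondrial ribosomal proteins gave 1 higher and 2 lower of 76 after A485, and 24 and 39 after pyruvate. These are 1.32% and 2.63% with A485, and 31.6% and 51.3% with pyruvate, against 4.43% and 8.21%, and 40.6% and 40.2%, of all genes. Their pyruvate median of -0.40 turned to 0.32 with the trend removed, when 36 were higher and 18 lower, against 40.4% and 25.5% of all genes.

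Of 11 genes of the outer membrane and protein import, VDAC1 and HSPA9 fell after A485 (-0.88 and -0.75), or 18.2%, against 8.21% of all genes. After pyruvate 5 rose and 6 fell, or 45.5% and 54.5%, against 40.6% and 40.2% of all genes. HSPD1 stood at 2.73 and TOMM20 at 2.19. The 6 subunit and carrier genes outside the symbol rule include CYCS, the electron carrier cytochrome c, and CYC1, the cytochrome subunit of complex III. After pyruvate CYCS rose (1.65) and CYC1 fell (-1.21), and 4 of the 6 fell in all, or 66.7%, against 40.2% of all genes. After A485 none of the 6 passed by limma (all genes: 4.43% higher and 8.21% lower) or edgeR (754 higher and 1306 lower of 16084). At an unadjusted p below 0.05 in limma, 1 of the 6 was lower, against 17.1% of all genes. DESeq2 called 1 of the 6 lower, against 13.1% of all genes.

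Other named genes are given by their log2 fold change after A485, MS-275 and pyruvate, in that order. UQCRFS1, the Rieske iron-sulfur protein of complex III, stood at 0.037, -0.065 and -0.51. ATP5F1A, the alpha subunit of the ATP synthase head, stood at -0.12, 0.16 and -0.80. In complex IV, COX6A1 stood at 0.38, 0.16 and -1.42, COX6B1 at -0.24, -0.083 and -1.14 and COX8A at -0.093, -0.04 and -1.34. All 5 genes passed after pyruvate, as lower, and none passed in the other comparisons. COX7B was at 0.29 after MS-275 and fell after pyruvate, at -0.36. The fall of COX7B stayed with the length and GC trend removed. It did not pass with equal totals, at -0.049 (limma adjusted p = 0.754), or with eBayes without a trend (limma adjusted p = 0.158). UQCRB was at 0.28 after A485, and after MS-275 UQCRH was at 0.35, ATP5PF at 0.33, ATP5MC1 at 0.41 and ATP5ME at -0.31, none of which passed.

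Set side by side, the 3 comparisons gave a gene different values, and since each has its own control the differences between them were not tested. NDUFC2 stood at 0.85 after A485, -0.26 after MS-275 and -1.51 after pyruvate. COX7A1 stood at 1.28, -0.30 and -3.87. SDHD stood at 0.048, 0.39 and 2.05, and UQCRC2 at -0.12, 0.014 and 1.55. Among the 6 pseudogenes, ATP5MC2P4, ATP5MFP2, ATP5PDP2, COX6A1P2, UQCRBP1 and UQCRFS1P1, 5 were tested with A485, 6 with MS-275 and 2 with pyruvate (COX6A1P2 and UQCRFS1P1), and none passed. Their reads may belong to the genes they copy.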

How the data were processed

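RNA-seq of 12 IMR90 libraries (3 comparisons, 2 libraries per group) was used, and 8 mouse muscle libraries of the series were not used here. According to the submitters' processing notes, reads were handled with Trim Galore 0.6.10, HISAT2 2.2.1, SAMtools 1.7, featureCounts 2.0.6 and DESeq2 1.34.0, with hg38 named as the human build. The annotation, the strand setting and the treatment of reads in shared exons are not given in the sources used here. The deposited values are a normalised signal: the authors divided read counts per gene by 1 size factor per library, separately for each comparison. Whole reads were recovered from these steps for 100% of values, within a tolerance of 0.02 reads, and gave 24179065 to 46971227 reads per library.

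Values were taken as log2(value + 1) for genes with a mean of at least 10, fitted with limma 3.58.1 in R 4.3.3 (lmFit and eBayes with trend, no covariate, 4 libraries a fit) and adjusted over all genes by Benjamini-Hochberg. Fold changes are on that scale and understate the change of low genes. edgeR 4.0.16 and DESeq2 1.42.0 on the recovered reads, other scalings, removal of a spline of transcript length and GC content (GENCODE canonical transcripts, 5 degrees of freedom), the replicate number as a block and leaving out single libraries were alternatives. The fit was tested on simulated data. The members, the lists and the tests were chosen with earlier results of these data known. By rule, named genes were, for each complex and comparison, the 2 with the smallest p-values and those with the highest and lowest fold changes, besides fixed sets of core, isoform and catalytic subunits; 1 such gene is not reported here, and not every other one is given in every comparison. Shared replicate numbers are 2 per comparison, which is too few to show that they pair the libraries.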

Additional observations from a re-analysis of the deposited data

How the results depend on the processing

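For A485 the count of higher subunit genes was 1 and became 14 with equal totals (all genes: 17.5%), 2 with quantile scaling (6.94%), 2 with the length and GC trend removed (4.88%) and 4 with DESeq2 (8.26%). It became 0 with eBayes without a trend (all genes: 258 of 16084) and 0 above a log2 fold change of 1 (532 of 16084). The count of lower genes was 0 and became 1 with the trend removed (9.09%), and the median of 0.027 became 0.42 with equal totals and 0.17 with quantile scaling. For MS-275 the count of higher genes was 0, and the median ran from -0.35 (without MS-275 replicate 2) to 0.53 (without MS-275 replicate 1) with a library left out. For pyruvate the 14 higher genes became 9 above a log2 fold change of 0.58 (all genes: 4470 of 12013) and 7 above 1 (3726 of 12013). The 49 lower genes became 26 above 1 (2777 of 12013). The pyruvate median of -0.72 became -0.41 with equal totals and -0.23 with the trend removed, and ran from -0.82 (without Control6 replicate 1) to -0.63 (without Control6 replicate 2) with a library left out. The causes were not tested.

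With the replicate block, 5 genes were higher after A485 (all genes: 9.62%), and 14 were higher and 6 lower after MS-275 (19.9% and 19.4%). With the replicate block and the trend removed, 3 were higher and 2 lower after A485 (8.72% and 13.6%), 14 and 7 after MS-275 (17.7% and 17.2%), and the pyruvate median was -0.23. Same-numbered libraries had deviations that correlated at 0.316 for A485, 0.728 for MS-275 and 0.002 for pyruvate. Each comparison has 2 such pairs, whose deviations mirror each other by construction, so the numbers are not taken to pair the libraries.

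After pyruvate 9 named genes changed sign with the trend removed, with the same values under the block: NDUFS1 at -0.16, COX7C at -1.04, SDHA at 0.30, NDUFS3 at 0.12, NDUFS7 at 0.14, NDUFS8 at 0.15, ATP5F1E at -1.45, ATP5MC1 at 0.43 and ATP5MC2 at 0.63. NDUFA4 changed sign with equal totals, at 0.24. With 2 libraries per group, differences of the size seen between the libraries numbered 1 and 2 of the MS-275 experiment limit what could be detected there, and genes with few reads or shared exons are the least certain.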
